A study of Mus musculus with 6 samples.

Results

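The fatty acid desaturases are the 7 genes Scd1, Scd2, Scd3, Scd4, Fads1, Fads2 and Fads3, out of 22942 genes in the tables. They were chosen by name, and each was represented by its single RefSeq transcript. Messenger RNA was sequenced from C3H-10T1/2 cells, mesenchymal cells of the mouse that form fat cells when induced. The 3 control cultures received the solvent DMSO, and the 3 treated cultures received 4 uM of 611 (also named Cpd A), which inhibits LSD1, a histone demethylase. Per the labels' protocol, treatment began before differentiation, and induction followed 48 h after the start of treatment. All 6 cultures were kept under brown adipocyte differentiation for 6 days with isobutylmethylxanthine, indomethacin, dexamethasone, insulin, T3 and rosiglitazone. After 72 h only insulin, T3 and rosiglitazone were continued. Rosiglitazone activates the nuclear receptor PPAR-gamma, so the levels below were measured with that drug present in both groups. No untreated or undifferentiated culture is among these samples, and a single line was used.

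Desaturases put double bonds into fatty acids. The stearoyl-CoA desaturases of the endoplasmic reticulum make oleic and palmitoleic acid from the saturated chains that the cell synthesises, and these products are built into triglycerides, phospholipids and cholesterol esters. Scd1 is the main form of mouse fat tissue and liver, Scd2 is prominent in brain and many other tissues, Scd3 is known from skin and the Harderian gland, and Scd4 from heart. The Fads enzymes carry their own cytochrome b5 domain. Fads2 and Fads1 act in turn on dietary essential fatty acids to give arachidonic acid and the long omega-3 acids, and Fads3 desaturates sphingoid bases. Scd transcription is known to respond to insulin, to SREBP-1c and to liver X receptors, and Fads1 and Fads2 to SREBP-1c and polyunsaturated fatty acids.

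The Scd messages are so alike that their sequences bear on how each value can be read. Coding sequences of the 4 Scd genes were between 84.2% and 91.5% identical over 6 pairs, the highest being Scd1 with Scd3. Those of the 3 Fads genes were between 66.5% and 71.1% identical over 3 pairs. The longest stretch shared without a mismatch was 185 bases for Scd1 and Scd3, 147 for Scd1 and Scd2 and 116 for Scd1 and Scd4, each inside the coding sequence. Among the Fads genes the longest was 54 bases, between Fads2 and Fads3. A stretch of 90 coding bases in which the 4 Scd genes nearly coincide is shown first, taken from the GENCODE transcripts of build GRCm38 and written 5′ to 3′, with bases that differ from Scd1 in capitals.
Scd1: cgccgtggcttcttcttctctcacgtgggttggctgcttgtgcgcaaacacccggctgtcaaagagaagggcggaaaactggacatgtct
Scd2: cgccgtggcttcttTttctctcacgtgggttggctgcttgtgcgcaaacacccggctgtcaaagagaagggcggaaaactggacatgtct
Scd3: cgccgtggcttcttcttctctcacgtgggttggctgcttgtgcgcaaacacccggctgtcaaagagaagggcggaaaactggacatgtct
Scd4: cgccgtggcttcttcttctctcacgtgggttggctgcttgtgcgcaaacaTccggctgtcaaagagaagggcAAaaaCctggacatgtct
Here Scd3 had 0 differences from Scd1, Scd2 had 1 and Scd4 had 4. In a second stretch of 90 bases, nearer the start of the coding sequence, the same genes can be told apart, with 11 differences from Scd1 in Scd2, 20 in Scd3 and 22 in Scd4.
Scd1: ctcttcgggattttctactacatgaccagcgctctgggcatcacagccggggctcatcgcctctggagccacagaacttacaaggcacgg
Scd2: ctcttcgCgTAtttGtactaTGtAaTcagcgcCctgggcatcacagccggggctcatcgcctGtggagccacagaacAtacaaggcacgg
Scd3: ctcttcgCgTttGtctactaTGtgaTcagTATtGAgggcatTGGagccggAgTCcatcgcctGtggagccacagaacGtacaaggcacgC
Scd4: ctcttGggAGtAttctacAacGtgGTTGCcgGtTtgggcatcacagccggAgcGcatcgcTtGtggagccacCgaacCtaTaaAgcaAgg
A read from the first stretch could not be assigned to Scd1 or Scd3 by its letters, while a read across the second could. The sources used here do not give how reads that match several genes were counted.

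With 611 the Scd genes and the Fads genes did not change alike. Scd1, Scd3 and Scd4 fell to between 0.450 and 0.528 times their DMSO level, while Scd2 was at 530 RPKM against 547. The Fads genes rose by 1.12-fold to 1.17-fold in the deposited values, a rise that was not called after a scaling between libraries. Values are RPKM, the reads of a transcript divided by its length in kilobases and by the reads of the library, given as the mean ± SD over n = 3 libraries of a group. Because RPKM is per length, levels of different genes can be set side by side.

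Library depth and the scaling bear on all 7 genes. Library totals lay between 3.89e+07 and 4.12e+07. Of 13829 genes tested, 41.6% were called higher and 17.7% lower with 611 (limma on log2(RPKM + 1), Benjamini-Hochberg adjusted p below 0.05). Median-of-ratios scaling, which centres the typical gene, turned this into 28.5% higher and 28.6% lower, so the share of calls that were higher went from 70.1% to 49.9%. The median over all genes tested moved from 0.10 to 0.00 on the log2 scale, a shift of -0.11. Over the 7 desaturases 3 were called higher, 3 lower and 1 not called, with a median log2 fold change of -0.05. After scaling 0 were higher and 4 lower, with a median of -0.20.

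**Figure D1:**
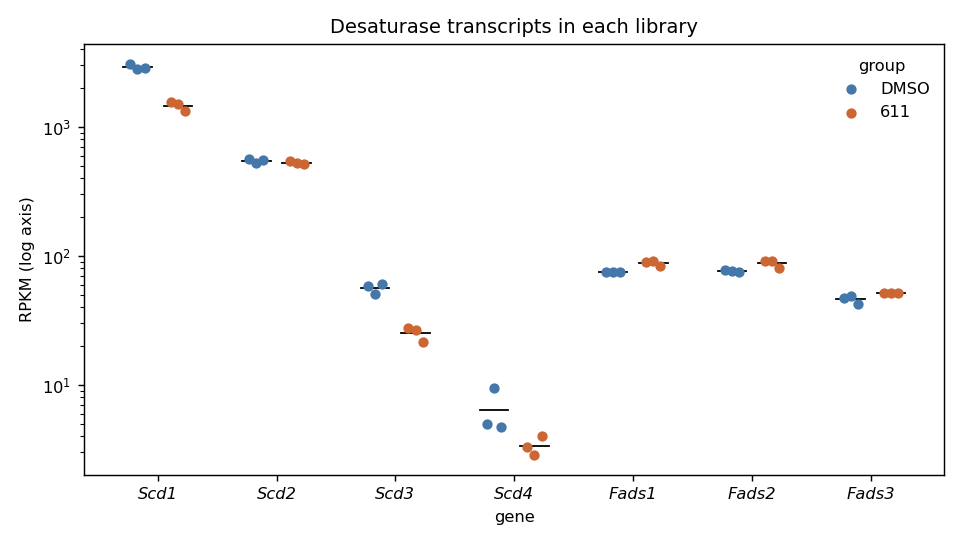
RPKM of each desaturase transcript in each library (log axis), with DMSO libraries in blue, 611 libraries in orange and a bar at the mean of the 3 libraries of a group. As deposited, Scd1, Scd3 and Scd4 have all 611 libraries below all DMSO libraries, and the Scd2 groups overlap. The Fads libraries with 611 lie slightly above those with DMSO, a rise that was not called after scaling. The share of all genes without overlap was not computed, but 41.6% of tested genes were called higher and 17.7% lower.

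Scd1 was among the most abundant messages of these cells. Its level was 3101, 2832 and 2856 RPKM in DMSO replicates 1, 2 and 3 and 1550.4, 1502 and 1327 RPKM in 611 replicates 1, 2 and 3. Every 611 library lay far below every DMSO library, and the gap was wider than the range inside either group. By level Scd1 ranked 3 of all genes with DMSO and 8 with 611. The mean went from 2929.9 ± 149 to 1459.8 ± 117, 2.01-fold lower. On the log2(RPKM + 1) scale Scd1 fell by 1.01 (SE 0.08, 95% interval -1.18 to -0.83; limma, Benjamini-Hochberg adjusted p = 7.86e-06). Only 0.6% of the tested genes had a lower log2 fold change than Scd1. After scaling the change was -1.16 (adjusted p = 7.61e-06). Between 262156 and 582272 estimated reads per library stood behind these values, so counting error was far smaller than the spread between cultures.

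Scd2, the second stearoyl-CoA desaturase of these cells by level, kept nearly the same value. It was at 562, 528 and 552 RPKM in the 3 DMSO libraries and at 544, 529 and 516 in the 3 with 611. The groups overlapped, and the 2 lowest values were those of 611 replicate 3 and DMSO replicate 2. The mean was 547 ± 17.1 with DMSO and 530 ± 14.2 with 611, a log2 fold change of -0.05 (95% interval -0.15 to 0.05) that was not called (limma, Benjamini-Hochberg adjusted p = 0.393). That interval leaves room for a small change in either direction. After median-of-ratios scaling Scd2 was called lower, at -0.20 (95% interval -0.32 to -0.08; adjusted p = 0.0097), so its call depended on how the libraries were scaled. Under both scalings its interval lay above that of Scd1.

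Scd3 was present at a small fraction of the Scd1 level and moved with it. Its values were 58.7, 50.5 and 60.5 RPKM with DMSO and 27.8, 26.8 and 21.7 RPKM with 611. The groups did not overlap, and the lowest DMSO value was well above the highest with 611. The mean went from 56.6 ± 5.34 to 25.4 ± 3.28, 2.22-fold lower, with a log2 fold change of -1.13 (SE 0.10; limma, Benjamini-Hochberg adjusted p = 1.69e-05), and -1.27 after scaling (adjusted p = 1.41e-05). Its rank by level went from 1040 to 2427.

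Scd4 was the least abundant desaturase. It was at 5.01, 9.43 and 4.73 RPKM with DMSO and at 3.28, 2.85 and 4.00 with 611. All DMSO values were above all those with 611, but DMSO replicate 2 stood well above the other libraries of its group. The mean of 6.39 ± 2.64 went to 3.38 ± 0.578, 1.89-fold lower, with a log2 fold change of -0.71 (SE 0.21, 95% interval -1.19 to -0.23; limma, Benjamini-Hochberg adjusted p = 0.0173). Scaling moved it to -0.83 (adjusted p = 0.00802). Without DMSO replicate 2 the change was -0.43 (adjusted p = 0.00933), and without 611 replicate 2 the call was lost at -0.62 (adjusted p = 0.0561). It was also lost when no filter on low values was applied (adjusted p = 0.0506). Its values rested on an estimated 388 to 1238 reads per library, with a counting error of 2.84% to 5.08%, so the excess of DMSO replicate 2 was larger than counting error.

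The shared sequence limits what can be said of Scd3 and Scd4 as genes of their own. Scd3 was at 1.89%, 1.78% and 2.12% of the Scd1 level in the DMSO libraries and at 1.79%, 1.79% and 1.63% in those with 611. These shares overlapped between the groups, so Scd3 and Scd1 fell in nearly the same proportion. Scd4 was at 0.162%, 0.333% and 0.166% of Scd1 with DMSO and at 0.211%, 0.190% and 0.301% with 611, again with overlap. Of the windows of 50 bases in the Scd3 transcript, 4.85% also occur in Scd1, and for Scd4 the share was 2.58%. Had all Scd1 reads from those windows been counted to both genes, they alone would have given Scd3 a level of 142 RPKM with DMSO and 70.9 with 611, above the 56.6 and 25.4 measured. For Scd4 they would have given 75.6 and 37.7 against the measured 6.39 and 3.38. Windows of 75 bases would have given 95.2 and 47.45 for Scd3 and 38.1 and 19.0 for Scd4. The read length is not known, so neither window stands for it. Shared Scd2 reads, at 50 bases, would have given Scd3 21.6 and 20.9 and Scd4 10.25 and 9.92. The measured levels were thus below what counting every shared Scd1 read to both genes would give. A smaller contribution of Scd1 reads, or one of Scd2 reads, to Scd3 and Scd4 was not tested. The tables hold 1 value per transcript, so the bases that tell the genes apart cannot be read on their own.

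Summed over the 4 Scd genes, the level went from 3540 ± 164 to 2018 ± 134 RPKM. Scd1 made up 82.8% ± 0.489 of that sum with DMSO and 72.3% ± 1.09 with 611, and Scd2 15.5% ± 0.403 and 26.3% ± 1.14. The summed level thus fell while a larger share of what was left came from Scd2. The ratio of Scd1 to Scd2 within a library needs no scaling between libraries. It was 5.52, 5.36 and 5.18 with DMSO and 2.85, 2.84 and 2.57 with 611. The change was -0.96 on the log2 scale, or 1.95-fold lower, and the groups did not overlap (exact permutation test, two-sided, p = 0.1, the smallest that 3 against 3 libraries can give; 0.167 adjusted over 5 gene pairs).

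**Figure D2:**
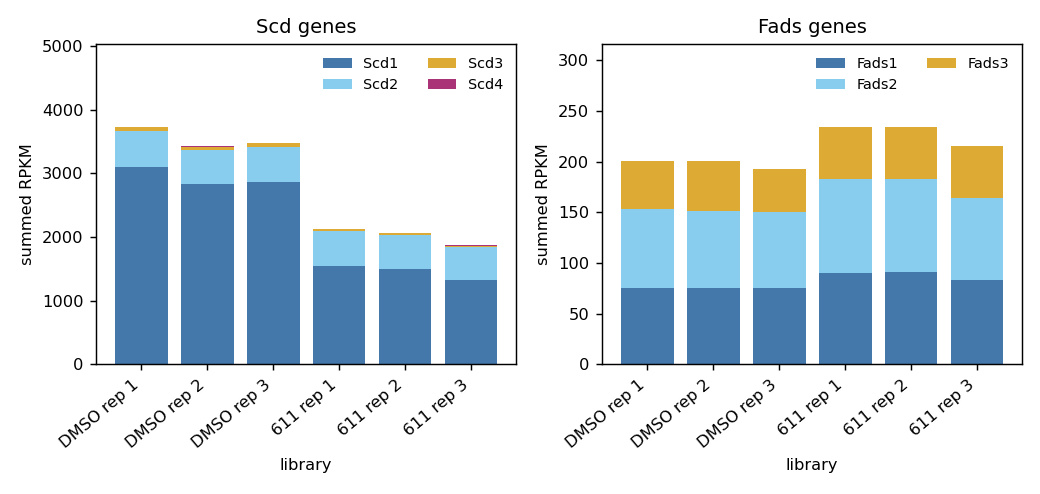
Summed RPKM of the 4 Scd genes (left) and of the 3 Fads genes (right) in each library, with each bar divided by gene and each axis starting at 0. The Scd sums go from 3421 or more with DMSO to 2126 or less with 611 through the Scd1 segment, and the Fads bars keep the same make-up.

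Fads1, which makes arachidonic and eicosapentaenoic acid in the last desaturation step, was slightly higher with 611. Its values were 75.3, 75.1 and 75.7 RPKM with DMSO and 90.5, 91.0 and 83.6 RPKM with 611. The DMSO libraries lay very close together, and all libraries with 611 were above them. The mean rose from 75.4 ± 0.303 to 88.4 ± 4.14, 1.17-fold, with a log2 fold change of 0.22 (95% interval 0.13 to 0.32; limma, Benjamini-Hochberg adjusted p = 0.00138). After median-of-ratios scaling it was 0.07 (95% interval -0.03 to 0.18; adjusted p = 0.186) and not called.

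Fads2, which starts the same pathway and is held to be its rate-limiting step, gave nearly the same picture. It was at 78.3, 76.5 and 74.6 RPKM with DMSO and at 91.9, 91.6 and 80.6 with 611, without overlap. In both genes 611 replicate 3 was the lowest of the treated libraries. The mean rose 1.15-fold from 76.5 ± 1.82 to 88.02 ± 6.40, a log2 fold change of 0.20 (95% interval 0.08 to 0.32; limma, Benjamini-Hochberg adjusted p = 0.0114). After scaling it was 0.05 (95% interval -0.09 to 0.18; adjusted p = 0.513) and not called.

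Fads3, the sphingoid base desaturase, had the smallest mean fold change of the family. It was at 46.9, 48.6 and 42.8 RPKM with DMSO and at 51.7, 51.5 and 51.4 with 611. The treated libraries were almost equal and all above the controls. The mean rose 1.12-fold from 46.1 ± 2.99 to 51.5 ± 0.165, a log2 fold change of 0.16 (95% interval 0.05 to 0.27; limma, Benjamini-Hochberg adjusted p = 0.0182), and 0.01 after scaling (95% interval -0.10 to 0.12; adjusted p = 0.847). Between 58.0% and 65.5% of the tested genes had a lower log2 fold change than Fads3, Fads2 and Fads1, which places all of them close to the middle of the transcriptome.

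**Figure D3:**
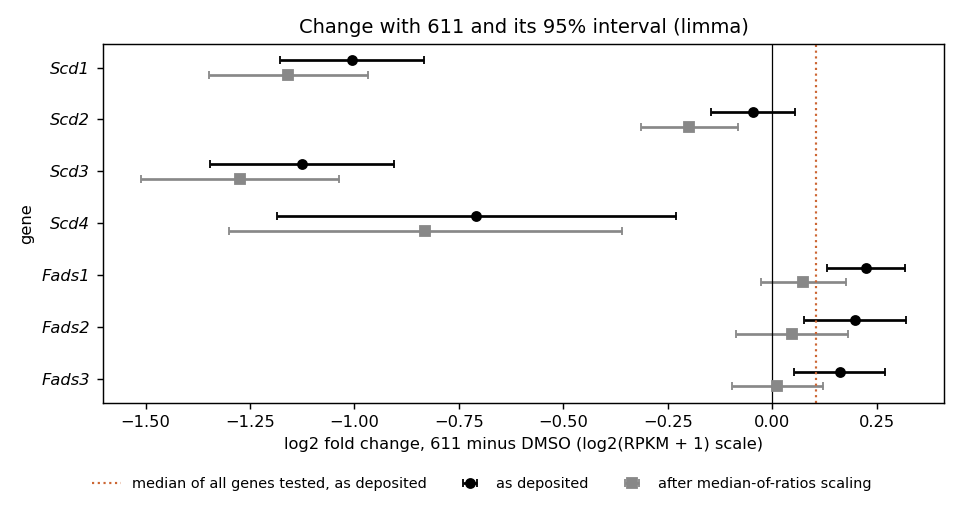
Log2 fold change of each desaturase gene, 611 minus DMSO on the log2(RPKM + 1) scale, with its 95% interval from limma, as deposited (black circles) and after median-of-ratios scaling (grey squares). The dotted line is the median of all genes tested, at 0.10 as deposited: the Fads genes lie near it, while Scd1, Scd3 and Scd4 lie at -0.71 or lower under both.

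Within the Fads family the proportions held. Fads1 made up 38.1% ± 0.961 of the summed Fads level with DMSO and 38.8% ± 0.113 with 611, Fads2 38.6% ± 0.409 and 38.6% ± 1.04, and Fads3 23.3% ± 1.06 and 22.6% ± 1.04. The sum went from 198 ± 4.17 to 228 ± 10.6 RPKM. The log2 ratio of Fads1 to Fads2 changed by 0.03 (exact permutation test, two-sided, p = 0.4; 0.5 adjusted over 5 pairs), and that of Fads3 to Fads2 by -0.04 (exact permutation p = 0.6; 0.6 adjusted). Both pairs overlapped between the groups. The Scd genes set against Fads2 differed in size. Scd1 was 39.6, 37.0 and 38.3 times Fads2 with DMSO and 16.9, 16.4 and 16.5 times with 611, a change of -1.21 on the log2 scale. Scd2 was 7.18, 6.90 and 7.39 times Fads2 with DMSO and 5.92, 5.78 and 6.40 times with 611, a change of -0.25. Neither of these ratios overlapped between the groups (exact permutation p = 0.1 for each, the smallest possible; 0.167 adjusted). Scd2 therefore lost ground to Fads2 within libraries, although its own level as deposited was not called.

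In order of level, the DMSO cells had Scd1 first, then Scd2, then Fads2 and Fads1, then Scd3 and Fads3, and Scd4 last. Fads2 and Fads1, at 76.5 and 75.4 RPKM, did not differ beyond their spread. With 611 Fads1 and Fads2, at 88.4 and 88.02, were again within their spread, and Fads3 at 51.5 stood above Scd3 at 25.4. Scd3 and Fads3 thus exchanged places.

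The 7 genes lie in 2 clusters on chromosome 19, and neighbours were read from the order of genes in the RefSeq table of GRCm38.p6. In the Scd cluster the order is Scd3, Scd2, Scd4 and Scd1. Scd2, not called as deposited but called lower after scaling at -0.20, thus lies between genes with larger falls. Because of the shared sequence, the falls of Scd3 and Scd4 cannot be taken as separate from that of Scd1. The Scd3 span lies inside that of Pkd2l1, a channel gene at 0.449 ± 0.146 RPKM with DMSO and 0.272 ± 0.0631 with 611 (limma, Benjamini-Hochberg adjusted p = 0.0792; lower after scaling, adjusted p = 0.0474). Bloc1s2, a subunit of a lysosome-related complex on the Scd3 side, was at 13.6 ± 0.547 and 14.5 ± 0.740 and was not called. On the Scd1 side Sec31b, at 0.321 ± 0.0592 and 0.432 ± 0.155, was not called and Wnt8b was too low to test. The microRNA entry Mir5114 lies inside Scd2 and was listed at 908 ± 45.4 and 866 ± 7.03 RPKM. The sources used here do not give whether the counting used strand, so reads of overlapping genes cannot be told apart.

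In the Fads cluster the order is Fads3, Fads2 and Fads1. Next to Fads3 lies Rab3il1, an exchange factor for Rab proteins, which rose 2.74-fold from 1.62 ± 0.209 to 4.43 ± 0.212 RPKM (limma, Benjamini-Hochberg adjusted p = 5.15e-06). Beside Fads1 lies Fen1, the flap endonuclease of DNA replication, which rose 1.73-fold from 5.07 ± 0.408 to 8.77 ± 0.613 (adjusted p = 4.1e-05). Both remained higher after scaling, at 0.95 and 0.56 on the log2 scale. The ferritin gene Fth1 and Tmem258, a subunit of the oligosaccharyltransferase, were not called (Tmem258 was lower after scaling, adjusted p = 0.00754), and Best1 was too low to test. Rab3il1 and Fen1 thus had larger differences than the Fads genes between them, while Fth1 and Tmem258, further out, did not.

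Promoter windows from 250 bases before to 50 after the start were held for 4 of the 7 genes in the RefSeq table of GRCm38.p6. Those of Scd4, Fads2 and Fads3 are shown because, as deposited, Scd4 fell while Fads2 and Fads3 moved together. The Scd4 call was lost under some alternatives, and the Fads2 and Fads3 rises were not called after scaling. A link between the letters of these windows and the changes was not tested. The Scd3 window lies inside the span of Pkd2l1 and is not shown. Sequences are 5′ to 3′ on the strand of the gene, with matches to the GC box (GGGCGG) or the CCAAT box (CCAAT), on either strand, in capitals.
Scd4, chr19:44333076-44333375, plus strand: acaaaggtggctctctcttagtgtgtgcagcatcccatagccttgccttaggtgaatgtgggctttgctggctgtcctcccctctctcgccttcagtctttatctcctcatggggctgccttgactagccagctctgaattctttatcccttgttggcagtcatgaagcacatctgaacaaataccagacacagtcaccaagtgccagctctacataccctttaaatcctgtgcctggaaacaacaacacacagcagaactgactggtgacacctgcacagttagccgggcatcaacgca
Fads2, chr19:10101454-10101753, minus strand: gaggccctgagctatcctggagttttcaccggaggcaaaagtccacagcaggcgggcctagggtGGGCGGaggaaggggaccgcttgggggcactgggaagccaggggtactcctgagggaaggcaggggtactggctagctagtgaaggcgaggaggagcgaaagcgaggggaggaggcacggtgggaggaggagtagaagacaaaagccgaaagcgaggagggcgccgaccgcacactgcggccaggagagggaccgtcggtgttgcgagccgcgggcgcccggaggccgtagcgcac
Fads3, chr19:10041298-10041597, plus strand: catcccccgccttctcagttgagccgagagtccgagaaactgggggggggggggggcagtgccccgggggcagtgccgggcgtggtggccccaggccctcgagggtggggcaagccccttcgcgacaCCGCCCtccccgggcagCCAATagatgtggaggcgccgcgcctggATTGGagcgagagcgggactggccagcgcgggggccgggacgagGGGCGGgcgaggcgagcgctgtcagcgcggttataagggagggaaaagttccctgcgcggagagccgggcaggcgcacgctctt
The Fads2 window held 1 GC box, and the Fads3 window held 2 GC boxes and 2 CCAAT boxes. The Scd4 window held neither. GC content was 50.7% for Scd4, 67.0% for Fads2 and 73.0% for Fads3, against a median of 52.7% over all windows. Of 32851 windows of the same 300 bases in the table, 35.7% hold a GC box and 37.4% a CCAAT box, so these matches are common. The TATA box (TATAAA, in 13.6% of windows), a sterol element (TCACNCCAC, in 1.24%) and the E box (CACGTG, in 7.15%) were searched on both strands and had no match in these 3 windows, which says only that those letters are not in them.

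The genes around the desaturation step were read from lists of the pathway, given as counts beside the 41.6% of all genes called higher and 17.7% called lower. Of 13 tested genes on the list of saturated fatty acid supply, which covers synthesis, its precursors and acyl-CoA activation, 10 fell and 1 rose, and the median log2 fold change was -0.48 against 0.10 for all genes. Thrsp, a nuclear protein of lipogenic tissues, fell 3.54-fold from 81.2 ± 0.789 to 22.9 ± 4.80 RPKM. Slc25a1, which exports citrate from mitochondria, fell 1.76-fold from 318 ± 14.3 to 180.3 ± 15.2, and Mlycd, a decarboxylase that removes the malonyl-CoA used in synthesis, fell 1.52-fold from 58.9 ± 2.45 to 38.7 ± 3.66. Acsl5, an acyl-CoA synthetase, rose 1.52-fold from 11.2 ± 0.517 to 17.1 ± 0.477. Fasn, fatty acid synthase, is named here outside the naming rule, after its values were seen. It was at 490.1 ± 27.0 and 432 ± 49.3 (limma, Benjamini-Hochberg adjusted p = 0.0728, not called; 0.0104 and lower after scaling). After scaling 12 of the 13 genes were lower and 1 higher.

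The genes of cytochrome b5 and its reductases, only some of which serve the Scd enzymes, moved both ways. Of 7 tested genes 5 fell and 2 rose, and the median log2 fold change was -0.25. Cyb5a, the cytochrome b5 of the endoplasmic reticulum that passes electrons to the desaturase, fell from 359 ± 9.91 to 308 ± 14.3 RPKM, and Cyb5b, the mitochondrial form, fell from 259 ± 4.22 to 204 ± 7.50. Por, the P450 reductase that can also reduce cytochrome b5, fell from 58.8 ± 4.22 to 41.4 ± 4.26. Cyb5r1 fell from 16.1 ± 1.12 to 13.4 ± 0.268 and Cyb5rl from 4.15 ± 0.378 to 2.95 ± 0.0833. In the opposite direction, Cyb5r3, the main cytochrome b5 reductase, rose from 175 ± 5.63 to 211 ± 3.43. Cyb5r4 rose from 6.06 ± 0.285 to 7.06 ± 0.0163, a call that was lost after scaling, where 1 gene was higher and 5 lower.

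Other membrane desaturases and their relatives did not follow Scd1. Of 6 tested, 4 rose and 0 fell, with a median log2 fold change of 0.39. Degs1, the desaturase that completes ceramide synthesis, rose from 64.3 ± 1.68 to 78.4 ± 1.70 RPKM, and its relative Degs2 from 1.49 ± 0.218 to 2.82 ± 0.215. Tmem189, the plasmalogen desaturase, rose from 26.4 ± 1.19 to 37.7 ± 1.31. The sterol enzymes Sc5d, at 30.1 ± 0.927 and 28.7 ± 0.591, and Msmo1, at 179 ± 3.79 and 184 ± 4.87, were not called. After scaling the 4 remained higher, and Sc5d and Msmo1 were called lower.

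Fatty acid elongation, which lengthens the products of both families, was mixed. Of 12 tested genes 3 rose and 5 fell, with a median of -0.01, and 5 rose with a replicate block or without DMSO replicate 2. Elovl6, which lengthens palmitic acid to the preferred substrate of Scd1, rose 2.27-fold from 6.63 ± 0.181 to 15.05 ± 1.503 RPKM, the opposite direction to Scd1. Elovl3, the elongase known from brown fat, was 1.98-fold lower at 76.0 ± 7.85 against 151 ± 9.42. Hacd2, a dehydratase of the elongation cycle, fell 2.95-fold from 36.4 ± 1.94 to 12.3 ± 0.256, while its relative Hacd4 rose 1.68-fold from 2.56 ± 0.407 to 4.29 ± 0.591. Hsd17b12, the reductase of the cycle, fell 1.49-fold from 443 ± 7.56 to 297 ± 10.8. Elovl2 was listed at 0 in all libraries. After scaling 3 of the 12 were higher and 6 lower.

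The enzymes that use the products split in both directions. Of 17 tested genes of esterification, which build monounsaturated acids into glycerolipids and sterol esters, 8 fell and 5 rose, with a median of -0.13 (10 lower and 4 higher after scaling). Dgat2, which completes triglycerides, fell 2.04-fold from 258 ± 7.95 to 126 ± 12.1 RPKM, Lpin1, the phosphatidate phosphatase, fell 2.07-fold from 62.4 ± 1.61 to 30.1 ± 1.60, and Gpam, the first acyltransferase of the glycerolipid path, fell 1.67-fold from 66.9 ± 3.71 to 39.96 ± 1.39. On the log2(RPKM + 1) scale the largest rises were those of the lysophospholipid acyltransferase genes Lpcat1 and Lpcat4 and of Soat1, which esterifies cholesterol. Mboat1, under 1 RPKM in both groups and so outside the naming rule, rose more by fold, 3.96-fold from 0.164 ± 0.0398 to 0.650 ± 0.0762. Lpcat1 rose from 1.84 ± 0.0587 to 3.86 ± 0.266, Lpcat4 from 0.563 ± 0.0947 to 1.36 ± 0.122 and Soat1 from 4.18 ± 0.349 to 6.52 ± 0.460. Lpcat3, a more abundant gene of the same kind, is named outside the rule after its values were seen, and was lower at 113 ± 6.26 against 143 ± 2.56 (limma, Benjamini-Hochberg adjusted p = 0.000224).

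Of 8 tested genes that use polyunsaturated acids, 5 fell and 3 rose, with a median of -0.31 (5 and 2 after scaling). Ptgs1, a cyclooxygenase, rose 2.90-fold from 7.27 ± 0.849 to 21.1 ± 1.70 RPKM, and Pla2g4a, the phospholipase that frees arachidonic acid, rose 2.44-fold from 2.90 ± 0.0664 to 7.08 ± 0.603. Ptgs2, the inducible cyclooxygenase, was low and rose from 0.328 ± 0.0392 to 0.510 ± 0.110 (limma, Benjamini-Hochberg adjusted p = 0.0461). That call was lost after scaling, with a pseudocount of 0.1, and on leaving out any of 5 of the 6 libraries, all but 611 replicate 3, and the gene was too low for the stricter filter. Those that fell include the peroxisomal oxidation genes Scp2, from 407 ± 8.38 to 277 ± 10.9, and Hsd17b4, from 111 ± 3.76 to 81.0 ± 2.66. Acot8, a peroxisomal thioesterase, fell from 12.7 ± 0.675 to 10.1 ± 0.655 and Pla2g6, another phospholipase, from 25.2 ± 1.27 to 20.1 ± 0.910. Alox15 was listed at 0 in all libraries.

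Known regulators of desaturase transcription moved both ways. Of 26 tested, 11 fell and 8 rose, with a median of -0.05 (15 lower and 5 higher after scaling). Nr1h3, the liver X receptor alpha, fell 1.81-fold from 46.1 ± 1.62 to 25.5 ± 0.152 RPKM, Insig1, which retains SREBP precursors, fell from 532 ± 7.60 to 356 ± 18.1, and Pparg fell 1.39-fold from 62.8 ± 1.09 to 45.2 ± 1.19. Srebf2, the SREBP of sterol synthesis, rose 1.62-fold from 28.8 ± 1.93 to 46.5 ± 2.27. Usp22 rose from 16.6 ± 0.637 to 22.4 ± 0.349, and Nfyb, a subunit of the factor that binds CCAAT boxes, from 4.58 ± 0.385 to 5.98 ± 0.242. Srebf1, the SREBP of fatty acid synthesis, is named outside the rule after its values were seen, and fell 1.31-fold from 59.1 ± 2.32 to 45.2 ± 3.91 (limma, Benjamini-Hochberg adjusted p = 0.000765). The gene does not separate the SREBP-1a and SREBP-1c forms in these values.

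Of 18 tested SREBP target genes other than the desaturases, 9 fell and 6 rose, with a median of -0.12 (10 and 4 after scaling). Pnpla3, a lipid droplet enzyme, fell 1.82-fold from 30.4 ± 0.238 to 16.8 ± 1.15 RPKM, and Acss2, which activates acetate, fell 1.43-fold from 13.9 ± 0.386 to 9.69 ± 0.364. Mvk, mevalonate kinase, rose 1.37-fold from 20.1 ± 1.36 to 27.5 ± 2.26, and Stard4, a sterol carrier, rose 1.31-fold from 15.7 ± 0.641 to 20.7 ± 0.632. Insig1, Srebf2 and Acss2 are also on other lists here. Hmgcs1, a gene of sterol synthesis that most cells use, was listed at 0 in all libraries, so a listed 0 need not mean that a gene was silent.

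**Figure D4:**
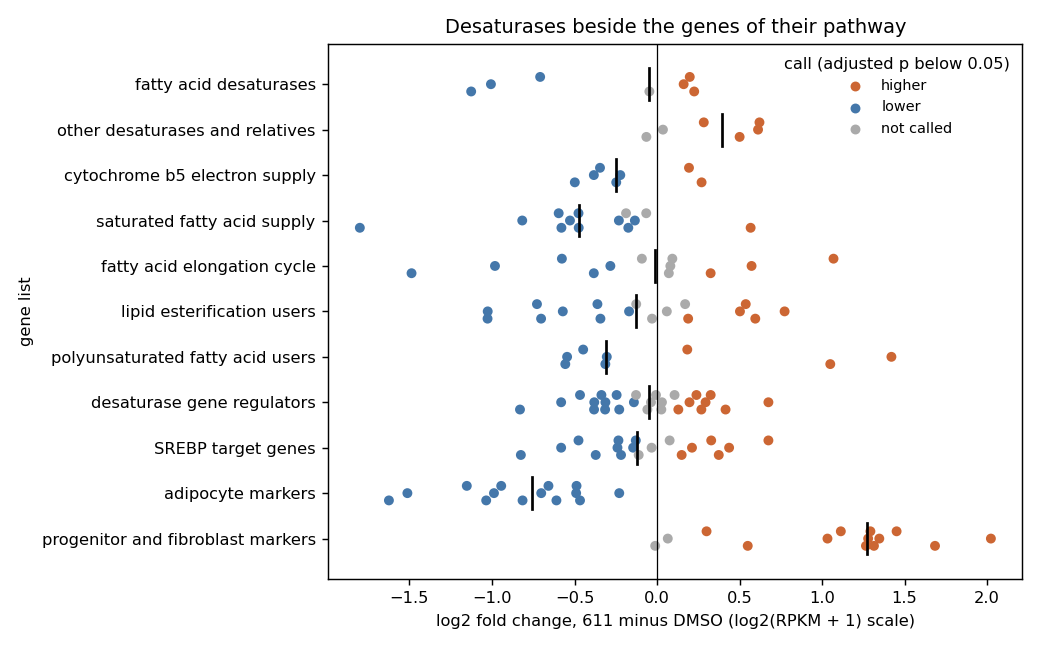
Log2 fold change (611 minus DMSO, log2(RPKM + 1) scale, as deposited) of every tested gene of each list, coloured by its call, with a black bar at the median of the list. The desaturases divide into 3 lower and 3 higher genes, while the adipocyte markers all lie below 0 and 12 of the 14 progenitor markers are called higher.

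The desaturase values come from whole cultures, in which fewer fat cells and less RNA per fat cell cannot be told apart. Of 14 tested adipocyte markers all fell, also after scaling, with a median of -0.76. The summed level of the list went from between 30065 and 31223 RPKM with DMSO to between 15638 and 17229 with 611. Most of that sum was Fabp4, at 21052 ± 790 with DMSO and 10946 ± 573 with 611. The falls ran from -0.23 for Cebpa to -1.62 for Cfd, the secreted protease adipsin. A larger fall than that of Scd1 was found in 4 of these 14 markers, and 3 fell more than Scd3 and 7 more than Scd4. All 14 had a lower log2 fold change than Scd2 and the Fads genes, so Scd1, Scd3 and Scd4 lay inside the range of the markers and the other desaturases outside it. Among the largest marker falls were those of Retn, resistin, 2.88-fold, and Cd36, a fatty acid transporter, 2.22-fold. Progenitor and fibroblast markers moved the other way: 12 of 14 rose and 0 fell, with a median of 1.27, and their sum went from 340–377 to 939–965 RPKM. Their part in the desaturase values was not tested.

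Brown adipocyte markers were lower in 5 of 8 tested genes and higher in 1, with a median of -0.63. The higher gene, Ebf2, lost its call after scaling and without DMSO replicate 1, DMSO replicate 3 or 611 replicate 2, which left 0. Their summed level went from 309.9–346 to 163–175 RPKM. Ucp1, the defining uncoupling protein of brown fat, and Epsti1 were listed at 0 in all libraries, as was Hmgcs1, so these entries do not show whether the genes were expressed. Sebaceous gland genes were listed because that gland is known for Scd3. Of 8 tested 6 fell and 2 rose, and their sum went from 150.4–167 to 71.7–74.8 RPKM, although Pparg, Cidea and Soat1 on that list are also expressed by fat cells. Mc5r, a melanocortin receptor, fell from 20.8 ± 2.52 to 6.70 ± 0.788, and Krt79, a keratin, from 9.08 ± 0.325 to 3.09 ± 0.149. All cultures were of a single line, and a link between these genes and the Scd3 level was not tested.

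Markers of other cell types were low. The macrophage list summed to between 1.02 and 1.28 RPKM with DMSO and 1.69 and 2.75 with 611, with 2 of 3 tested genes higher and Ptprc and Itgam listed at 0. That count was 0 without DMSO replicate 1 and 1 without DMSO replicate 2, 611 replicate 1 or 611 replicate 3. The endothelial list summed to between 0.0904 and 0.232 with DMSO and 0.322 and 0.328 with 611, with its 1 tested gene higher and Cdh5, Kdr and Tie1 listed at 0. For muscle the sums were 0.198 to 0.256 and 0.558 to 0.876, with its 1 tested gene higher and Myod1, Myog, Ckm and Myh4 listed at 0. Set against the summed Scd levels these lists were near 0 in both groups, although a listed 0 need not mean that a gene was silent.

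The genes whose levels followed a desaturase most closely over the 6 libraries were found among 7920 genes with a mean of at least 5 RPKM, as a description with no test. With 2 groups, any gene that differs between them correlates with any other that does. For Scd1 the highest Pearson r of log2(RPKM + 1) included those of Ndufb9, a subunit of respiratory complex I (0.9998), and Tex2 (0.9994), and 1482 genes had an r above 0.9. For Scd2, which differed little between groups, the highest included Phf10 (0.954) and Unc45a (0.952), and 22 genes passed 0.9. For Fads1 they were Zfp652 (0.996), Xrcc1 (0.993) and Puf60 (0.992), with 1701 genes above 0.9, and for Fads2 Nol12 (0.994), Ifnar2 (0.989) and a transcript without a symbol (0.985), with 220 genes. For Fads3 they were Cdipt (0.998), a transcript without a symbol (0.997) and Cops7b (0.990), with 452 genes. Among the desaturases themselves, r was 0.991 for Scd1 with Scd3, 0.959 for Fads1 with Fads2 and 0.662 for Scd1 with Scd2.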

How the data were processed

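RNA was sequenced from 3 DMSO and 3 611 cultures, grouped by sample title. The design text calls them biological triplicates, so p-values measure the spread between these cultures. Per the labels' protocols, TRIzol was used for extraction and a TruSeq stranded kit for the libraries. The labels disagree on whether treatment began at seeding or 12 h later. TopHat2 2.0.12, TopHat, SAMtools and build mm9 were used, per the submitters' processing notes. The authors deposited 1 table of RPKM values per library for 28430 RefSeq transcripts. The tables have no header, and the unit was read from the values. The program behind the RPKM values, its annotation, its use of strand and the read length do not appear in the sources used here.

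Accessions were named from a RefSeq table (27789 matched, 641 not), and the transcript with the highest mean stood for a gene. Genes with at least 0.1 RPKM in at least 3 libraries were fitted with limma 3.58.1 (R 4.3.3, trend, group only) on log2(RPKM + 1), which understates changes of low genes. P-values were Benjamini-Hochberg adjusted over 13829 genes, with a threshold of 0.05, after a test on simulated data. Ratios of gene pairs were tested by exact permutation (SciPy 1.17.1). Library totals were recovered from the steps of low RPKM values at GENCODE transcript lengths, with between 53.6% and 55.8% of the low values whole within 0.02 reads, and read numbers per gene are estimates from them, whose counting error leaves out amplification.

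The desaturases and all lists (208 entries, 205 matched) were chosen with earlier results of these data known. Named genes were all desaturases, every tested member of lists of up to 8, otherwise the 3 largest called rises and falls with at least 1 RPKM in the higher group, 3 neighbours on each side, and the 3 most correlated genes. Genes under this rule that are not mentioned are counted in their list. A few genes under the rule are not reported here by name. Same-numbered libraries deviated together from their group means (correlations of 0.296, 0.298 and 0.177 across genes), so the numbers may pair the libraries. The main fit and the permutation tests treated the libraries as unpaired, and only the replicate block took the numbers into account. Alternatives were median-of-ratios scaling, a pseudocount of 0.1, no filter, a filter of 1 RPKM, a replicate block, no variance trend and leaving out each library. The shares of Scd1, the list counts after scaling and the comparison with adipocyte markers were added after the values were seen.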

Additional observations from a re-analysis of the deposited data

How the results depend on the processing

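Scd1 and Scd3 kept their direction and call under all 12 alternatives, between -1.16 and -0.94 and between -1.27 and -1.02 on the log2 scale. Median-of-ratios scaling changed the most: 3962 genes were lower, 0 desaturases were higher, Scd2 was called lower at -0.20, and Fads1, Fads2 and Fads3 lost their calls at 0.0746, 0.0478 and 0.012. Scd4 lost its call without a filter (-0.71, adjusted p = 0.0506) and without 611 replicate 2, and ran from -0.86 to -0.43 when libraries were left out in turn. With the replicate block 6169 genes were higher and 2700 lower, and no desaturase call changed. Of 360 list counts 342 stayed within 1.5 times. The other-transcript alternative could not be run, since each desaturase has 1 transcript in the tables. Depth limits Scd4 most, at 388 reads in its lowest library.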
